A study of Mus musculus with 6 samples.

Results

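The adaptors that couple receptor tyrosine kinases to RAS were examined in the mouse melanoma line B16F10, whose cells make pigment, treated with the EZH2 inhibitor GSK126 or its vehicle. The set comprised 10 of the 54838 genes in the deposited tables, taken by symbol. These were the 4 Shc paralogs Shc1, Shc2, Shc3 and Shc4, the adaptor Grb2, the RAS exchange factors Sos1 and Sos2, the docking proteins Gab1 and Gab2, and Eid1, which has exons in common with Shc4. Shc4 was chosen by its read counts, which differed strongly between the same DMSO and GSK126 libraries, and its family and partners were added around it. The members' differences between the groups are therefore given as a description, without p-values.

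RNA was sequenced from 6 samples, 3 with DMSO and 3 with GSK126 at 10 µM, all of 1 cell line. How long the cells were treated is not stated in the labels, and the protocol names DMEM or RPMI-1640 as the medium without saying which was used for these samples. The labels do not state that the 3 replicates of a group were cultured separately, so the errors and p-values given measure only how these samples scatter, and that scatter may be technical.

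An activated receptor tyrosine kinase is phosphorylated on tyrosines, to which Shc proteins bind through their SH2 and PTB domains. Shc proteins are then phosphorylated themselves and recruit Grb2, which carries the exchange factor SOS to the membrane, where SOS loads RAS with GTP and so starts the RAF, MEK and ERK kinase cascade. Gab proteins are docking platforms that Grb2 brings to the receptor and that recruit the phosphatase SHP2 and phosphoinositide 3-kinase. Shc1 is widely expressed, Shc2 and Shc3 are known mainly from neurons, and Shc4, also called ShcD or RaLP, is known from neurons and from melanoma cells. Eid1 is a nuclear protein that binds the retinoblastoma protein and inhibits the acetyltransferase p300, and has no known part in the adaptor pathway.

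Shc4 (GRCm38 chromosome 2, 125627447 to 125724148, minus strand) is shown with the sequence upstream of its start because it was the member that stood apart. RefSeq (GRCm38.p6) places the start where the annotated transcript Shc4-204 begins, while the coding transcript Shc4-201 begins at 125723387, inside the gene. The 250 bases before that start, chr2:125724149-125724398 on the minus strand, had a GC content of 50%. Capitals mark the only match to TGANTCA, the core motif of AP-1, searched on both strands.
Shc4 upstream: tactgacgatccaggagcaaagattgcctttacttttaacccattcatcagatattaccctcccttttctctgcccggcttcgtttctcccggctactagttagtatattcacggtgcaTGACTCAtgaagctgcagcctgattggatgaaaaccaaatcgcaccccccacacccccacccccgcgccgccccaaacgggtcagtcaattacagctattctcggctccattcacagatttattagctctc
The match lay at 125724273 to 125724279 and began 131 bases before the start. Of 32544 distinct mouse promoter windows of 300 bases (250 before and 50 after a start), 7.79% held this motif. The Shc4 window held none of 4 other motifs searched on both strands, which were TGACGTCA (CRE, in 1.8% of windows), CACGTG (E-box, 7.17%), CCGGAAGT (ETS, 3.92%) and GCGGGGGCG (EGR, 2.93%). Its ratio of observed to expected CpG was 0.864, above 84.4% of windows. Windows were found for 7 of the 10 members, and of the others only the downstream window of Shc1 held TGANTCA. These are matches of letters and no measure of binding.

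The antisense gene Eid1 (chromosome 2, 125673095 to 125674785, plus strand) lies inside Shc4. Its single exon shares 1 stretch of 527 bp, 125673106 to 125673632, with the first exons of the short transcripts Shc4-202 and Shc4-203. That is 6.38% of the Shc4 exon bases and 31.2% of those of Eid1. The start of the Eid1 coding region and the same 30 bases as they read in both short Shc4 transcripts (chr2:125673192-125673221) are printed because reads from here fit either gene unless the strand is known. Capitals mark the Eid1 start codon and its complement.
Eid1-201: ATGgcggagatggcagagctttgcgagctg
Shc4-202 and Shc4-203: cagctcgcaaagctctgccatctccgcCAT
No source used here says whether the authors' counting used the strand. The long coding transcript Shc4-201 shares no exon base with Eid1, and the gene-level counts do not show which Shc4 transcript the reads came from.

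**Figure D1:**
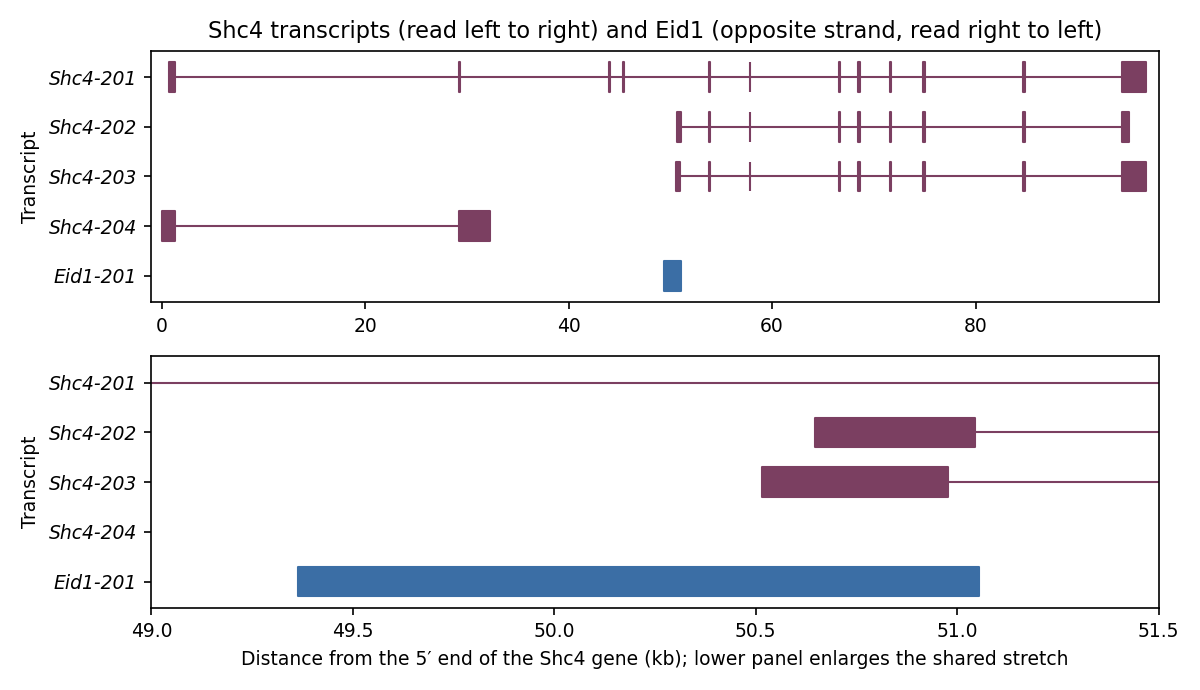
Exons (boxes) and introns (lines) of the 4 annotated Shc4 transcripts and of Eid1, drawn to scale by distance in kb from the 5′ end of Shc4, with the shared stretch enlarged in the lower panel. The first exons of Shc4-202 and Shc4-203 lie over the Eid1 exon, whose start is about 51.1 kb into Shc4, and Shc4-201 spans that exon with an intron.

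The libraries held 13594939 to 14713373 counts. Melanocyte markers were abundant throughout, with 7 of 7 fixed markers tested and summed levels of 21369 to 22574 CPM (read counts scaled to the library's total with TMM factors, not to gene length) with DMSO and 22772 to 23945 CPM with GSK126. Of these, 5 passed the edgeR test between the groups (71.4%, against 11.1% of all tested genes), with Mitf, Sox10, Pmel and Dct higher and Mlana lower with GSK126, and the part of such a shift in the values of the adaptors was not tested. Of 4 leukocyte markers, Cd3e and Adgre1 were at 0, and the summed level was at most 0.976 CPM. Of 3 endothelial markers, Cdh5 and Kdr were at 0, and the sum was at most 0.698 CPM. Fibroblast markers and Schwann and neuronal markers were not absent, and their sums are given with the processing. GSK126 replicate 3 stood apart in its low values. It had 201 of 10973 genes (mean of at least 5 CPM) more than 1.5 times below both other libraries of its group, against 73 to 91 such genes in each of the other 5 libraries. It did not stand apart in high values, with 63 genes more than 1.5 times above both others, against 38 to 67 in the other 5.

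Shc4 was the member that differed by far between the groups. Its level was 23.0, 21.8 and 22.3 CPM in DMSO replicates 1 to 3, and 102.8, 116 and 155 CPM in GSK126 replicates 1 to 3. The groups did not overlap, the lowest GSK126 library was 4.47 times the highest DMSO library, and the highest value was that of GSK126 replicate 3. The group means were 22.4 ± 0.621 and 125 ± 27.1 CPM (SD, n = 3), a ratio of 5.58 (log2 fold change 2.48, SE 0.15, by edgeR). In bulk RNA, more cells with the transcript and more transcript per cell cannot be told apart. Among 10973 genes with a mean of at least 5 CPM this was the third largest log2 fold change, just below Tmem170b (2.49, SE 0.83) and above Egr1 (2.27, SE 0.23). The spread within the groups also differed, with a coefficient of variation of 2.78% for DMSO and 21.7% for GSK126. Without GSK126 replicate 3 the log2 fold change of Shc4 was 2.29.

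**Figure D2:**
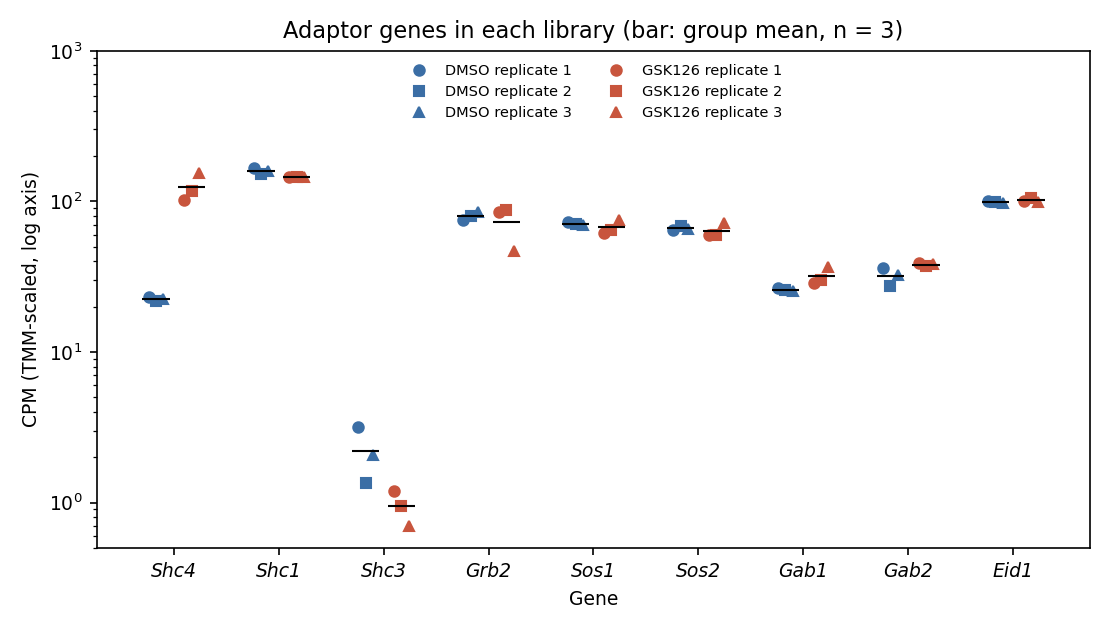
CPM on a log axis of the 9 members with reads in each of the 6 libraries (points, shaped by replicate number), with the group means as bars (n = 3). Shc4 lies between 21.8 and 23.0 CPM with DMSO and between 102.8 and 155 CPM with GSK126, while Grb2 in GSK126 replicate 3 lies below its other libraries.

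Of the 10 members, 9 had enough reads to be tested and 1 passed the test over all genes (edgeR quasi-likelihood test, adjusted p below 0.05). That is 11.1% of those tested, and 11.1% of all 13601 tested genes passed, 5.87% higher and 5.18% lower with GSK126. Shc4 was also the only member with a log2 fold change of at least 2 in size, which 0.243% of all tested genes had. Since Shc4 was chosen for this difference, nothing is read from these counts. The CPM ranges of the groups were apart for 5 of the 9, against 34.4% of all tested genes. The median log2 fold change was -0.05 for the 9 members and 0.00 for all tested genes.

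**Figure D3:**
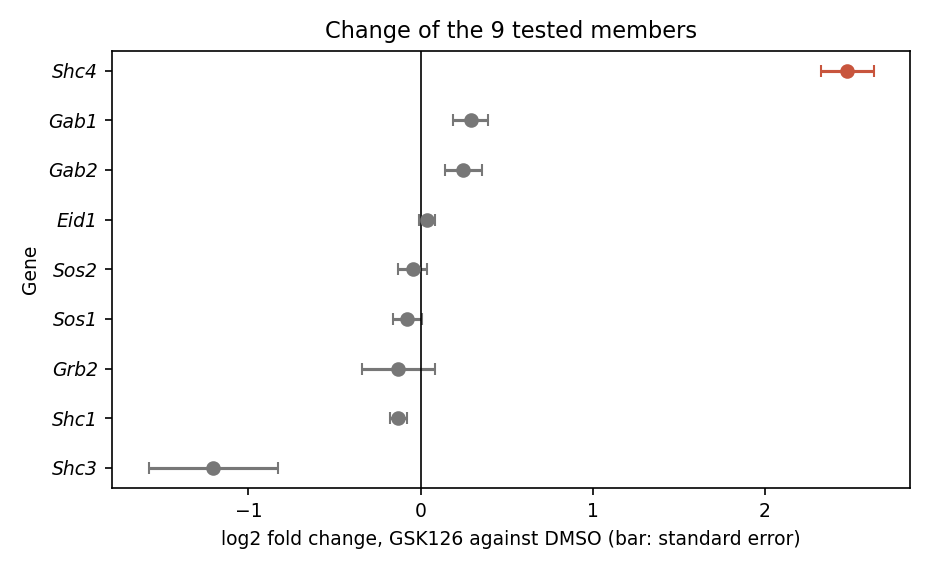
Log2 fold change of the 9 tested members, GSK126 against DMSO, with its standard error (bars), and in red the member that passed the test over all genes. Shc4 stands at 2.48, Shc3 at -1.21, and the other 7 between -0.13 and 0.29.

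Of the other Shc paralogs, Shc1 and Shc3 had lower means with GSK126 and neither passed, and Shc2 had no reads. Shc1 (chromosome 3, 89418443 to 89430027, plus strand), the main family member in most tissues, was at 167, 151 and 158 CPM with DMSO and 145, 145 and 145 CPM with GSK126. All GSK126 libraries lay below all DMSO libraries, by a small margin, and the log2 fold change was -0.13 (SE 0.05), which did not pass. The tables also hold 1 Shc1 pseudogene, with 100 to 136 reads per library, against 2073 to 2275 for Shc1, so that part of the Shc1 reads is uncertain. Shc3 (chromosome 13, 51431041 to 51569419, minus strand) had few reads, with 43, 19 and 28 in DMSO replicates 1 to 3 and 17, 14 and 10 with GSK126. Its GSK126 libraries were all lower, and 2 of them were above the minimum set for testing, against all 3 DMSO libraries. The log2 fold change of -1.21 (SE 0.37) did not pass. Shc2 (chromosome 10, 79618051 to 79637918, minus strand) had 0 reads in all 6 libraries, which allows a level of up to 0.204 to 0.221 CPM in each (3 counts; counting error only).

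The composition of the Shc family was compared per length, since reads per gene grow with transcript length. In the deposited FPKM, which scale fragments to gene length and library size, Shc4 made up 12.01%, 12.8% and 12.4% of the summed Shc level in DMSO replicates 1 to 3. With GSK126 the shares were 41.9%, 44.9% and 52.3%. The mean went from 12.4% ± 0.375 to 46.4% ± 5.36 (SD, n = 3), and that of Shc1 from 85.1% ± 0.538 to 52.9% ± 5.10. The summed level of the family was 18.1 ± 1.08 FPKM with DMSO and 26.8 ± 2.51 FPKM with GSK126. In GSK126 replicate 3 the Shc4 level was above that of Shc1, with an Shc1 to Shc4 ratio of 0.903, against 1.36 and 1.21 in the other GSK126 libraries and 6.71 to 7.04 with DMSO.

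Those shares depend on the length used. The length behind the FPKM of Shc1 was 10297 bp, the sum of its distinct annotated exons with overlapping bases counted more than once, whereas its exons cover 5645 bp. For Shc4 the lengths were 9967 and 8263 bp. Per kilobase of exon bases counted once, Shc4 made up 8.66% ± 0.237 of the family with DMSO and 36.6% ± 5.00 with GSK126. On that scale the level of Shc1 stayed above that of Shc4 in every library, with a ratio of 10.1 to 10.6 with DMSO and of 2.06, 1.83 and 1.37 in GSK126 replicates 1 to 3.

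**Figure D4:**
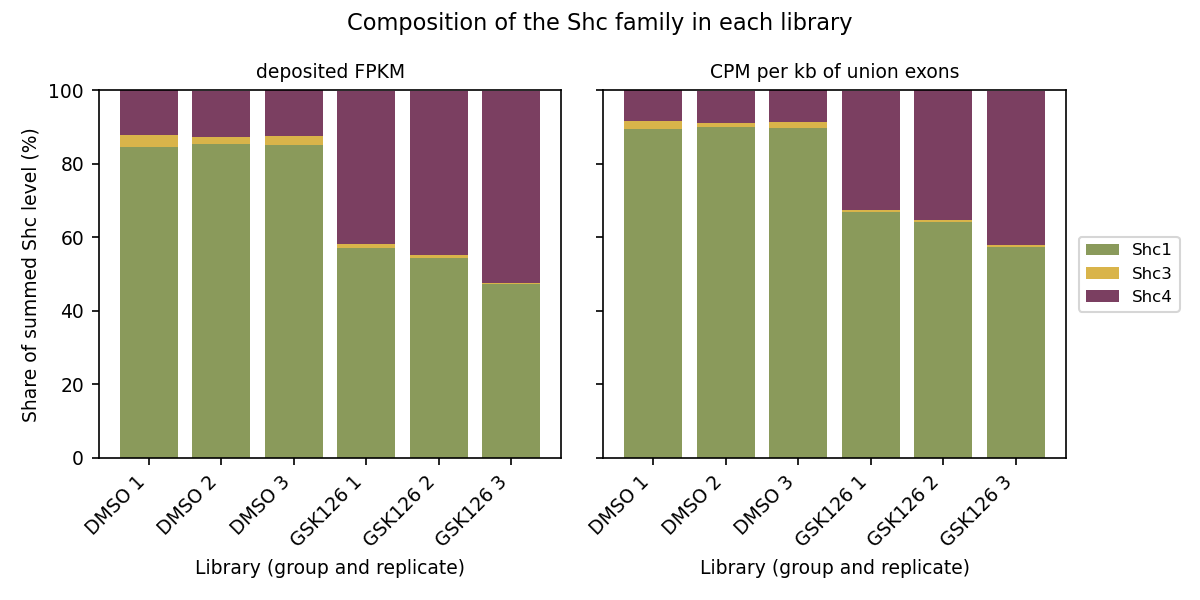
Share of Shc1, Shc3 and Shc4 in the summed Shc level of each library in percent, from the deposited FPKM (left) and from CPM per kilobase of exon bases counted once (right); Shc2 had no reads. The share of Shc4 is between 12.01% and 12.8% with DMSO and between 41.9% and 52.3% with GSK126 on the left, and between 32.4% and 42.1% with GSK126 on the right.

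Eid1 was compared beside Shc4 because of the shared exon bases. Eid1 was at 100.8, 99.5 and 97.7 CPM with DMSO and 101.3, 105 and 99.5 CPM with GSK126. The groups overlapped, and the log2 fold change was 0.04 (SE 0.05). Counts of Shc4 per count of Eid1 went from 0.228, 0.219 and 0.228 with DMSO to 1.02, 1.11 and 1.56 with GSK126. The summed counts of both genes were also higher with GSK126, at 204, 222 and 255 CPM against 124, 121 and 120 CPM, a log2 fold change of 0.90 (SE 0.08). The mean of Shc4 was 102.4 CPM above its DMSO value and that of Eid1 was 2.66 CPM above.

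Grb2 (chromosome 11, 115644045 to 115708597, minus strand), the adaptor that links Shc to SOS, differed in 1 library. It was at 75.1, 79.5 and 84.5 CPM with DMSO and at 84.7, 87.0 and 46.9 CPM with GSK126. GSK126 replicate 3 was below all other libraries, while the other GSK126 libraries were above all DMSO libraries. The log2 fold change was -0.13 (SE 0.21) over all libraries and 0.11 (SE 0.06) without GSK126 replicate 3, so the direction for Grb2 rests on that library. In the same library Shc4, Sos1, Sos2 and Gab1 had their highest GSK126 values, between 0.26 and 0.50 above the mean of the other GSK126 libraries on the log2(CPM + 1) scale, while Grb2 was at -0.86. The remaining tested members did not rise there in this way, with Gab2 at 0.003, Shc1 at -0.005, Eid1 at -0.05 and Shc3, which had few reads, at -0.28. The part of that library's other differences in these values was not tested.

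The exchange factors Sos1 and Sos2 had overlapping groups. Sos1 (chromosome 17, 80393751 to 80480453, minus strand) was at 73.3, 70.4 and 69.3 CPM with DMSO and 61.4, 64.7 and 75.7 CPM with GSK126 (log2 fold change -0.08, SE 0.08). Sos2 (chromosome 12, 69583762 to 69681852, minus strand) was at 64.2, 68.3 and 65.6 CPM with DMSO and 59.96, 59.8 and 72.1 CPM with GSK126 (-0.05, SE 0.09). For both, GSK126 replicates 1 and 2 lay below all DMSO libraries and replicate 3 lay above them. Without GSK126 replicate 3 the values were -0.17 for Sos1 and -0.14 for Sos2.

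The docking protein genes Gab1 and Gab2 were slightly higher with GSK126, with groups that did not overlap, and neither passed. Gab1 (chromosome 8, 80764438 to 80880519, minus strand) was at 26.7, 25.6 and 25.4 CPM with DMSO and 28.8, 29.9 and 36.4 CPM with GSK126 (log2 fold change 0.29, SE 0.10). Gab2 (chromosome 7, 97081586 to 97308946, plus strand) was at 36.3, 27.3 and 32.5 CPM with DMSO and 39.0, 37.0 and 38.1 CPM with GSK126 (0.25, SE 0.11). Without GSK126 replicate 3, the highest Gab1 library, the value for Gab1 was 0.18, and without DMSO replicate 2, the lowest Gab2 library, that for Gab2 was 0.14. Gab1 shares 266 bp of exons with the antisense gene Gm31105, which had at most 11 reads in a library.

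Within the DMSO samples, levels can be ranked per length without using the comparison of treatments. In FPKM, Eid1 led with 58.6 ± 1.19, followed by Grb2 (16.7 ± 0.910), Shc1 (15.4 ± 0.821), Sos1 (6.44 ± 0.212), Sos2 (4.97 ± 0.159), Gab2 (4.87 ± 0.690), Gab1 (3.17 ± 0.0946), Shc4 (2.24 ± 0.0657) and Shc3 (0.466 ± 0.194; SD, n = 3). The ranges of neighbours were apart for 6 of the 8 neighbouring pairs, and overlapped for Grb2 and Shc1 and for Sos2 and Gab2. With exon bases counted once, Shc1 (28.1 CPM per kb) came level with Grb2 (27.3), Sos2 (7.75) moved above Sos1 (6.70), and Gab2 and Gab1 overlapped. Shc4 was the eighth of 9 on both scales with DMSO. With GSK126 its FPKM of 12.5 ± 2.65 had a range that overlapped those of Shc1 (14.1 ± 0.0890) and Grb2 (15.3 ± 4.79) and lay above those of the Sos and Gab genes. With exon bases counted once, the overlap with Shc1 was gone. On that scale Shc4 with GSK126 was at 12.4 to 18.8 CPM per kb and Shc1 at 25.6 to 25.7. The range of Shc4 still overlapped that of Grb2 (16.1 to 29.8) and lay above those of the Sos and Gab genes.

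The genes whose pattern over the 6 libraries was most like that of Shc4 were Bnip3, Egr1, Mgll, Ablim1 and Slc16a3. Likeness was the root mean square difference of log2(CPM + 1), centred on the DMSO mean, among 9962 genes, with predicted genes and pseudogenes left out. This measure takes in the group difference by which Shc4 was chosen, so it favours genes with a large rise. Nothing about shared regulation is read from it. By log2 fold change, Mgll, Egr1 and Bnip3 ranked 1, 4 and 5 among 10973 genes. The likeness value was 0.374 for Bnip3, a mitophagy receptor, 0.378 for the immediate early factor Egr1, 0.396 for the lipase Mgll, 0.457 for the actin-binding Ablim1 and 0.470 for the lactate exporter Slc16a3. With GSK126, Bnip3 was at 92.1, 91.3 and 80.2 CPM and Egr1 at 85.8, 147 and 93.7 CPM in replicates 1 to 3, so neither was highest in replicate 3 as Shc4 was, and Slc16a3 was lowest there, at 88.8, 86.1 and 80.2 CPM. Mgll, at 11.1, 19.8 and 30.5 CPM, and Ablim1, at 53.0, 53.8 and 56.7 CPM, were highest in replicate 3.

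Within 500 kb on either side of Shc4, 19 other genes are annotated, and 7 were tested, Eid1 among them. Of these 7, 0 passed by edgeR, DESeq2 or limma-voom. By edgeR 11.1% of all tested genes passed, so with 7 genes nothing about the neighbourhood is read from this. At an unadjusted edgeR p below 0.05, 0 were higher and 1 was lower (Dut, -0.23, SE 0.06). At that level 14.4% of all tested genes were higher and 13.1% lower. The log2 fold changes ran from -0.23 to 0.12. Cep152, which encodes a centrosomal protein and is the nearest tested gene on one side, had 0.05 (SE 0.08), and Secisbp2l, the nearest on the other, had 0.12 (SE 0.07).

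Of a list of 22 other adaptors of receptor kinases, 17 were tested (median log2 fold change 0.01), of which 0 rose and Irs1 and Irs2 fell. That is 11.8% of those tested, near the 11.1% of all tested genes. At an unadjusted edgeR p below 0.05, 1 was higher (Dok5) and 3 were lower (Irs1, Irs2 and Sh2b3), against 14.4% higher and 13.1% lower of all tested genes. DESeq2 and limma-voom also called 0 higher and 2 lower. Irs2, a docking protein of the insulin and IGF1 receptors, went from 16.2, 17.6 and 18.8 to 11.2, 12.4 and 11.99 CPM (log2 fold change -0.56 with SE 0.10, edgeR adjusted p = 0.0135). Irs1, its paralog, went from 22.7, 26.8 and 25.0 to 17.8, 15.4 and 20.3 CPM (-0.48, SE 0.12, adjusted p = 0.0461 by edgeR). For both, all GSK126 libraries lay below all DMSO libraries. Irs2 was no longer called when DMSO replicate 2 or 3 was left out (edgeR adjusted p = 0.0552 and 0.0507), nor Irs1 without any library other than GSK126 replicate 3 (0.0820 to 0.142).

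Of 26 genes of the cascade from RAS to ERK, including exchange factors and GTPase activators, 20 were tested, of which Braf rose, 0 fell and 19 did not pass (5%, against 11.1% of all tested genes, with a median log2 fold change of -0.04). At an unadjusted edgeR p below 0.05, 2 were higher (Braf and Map2k1) and 4 were lower, against 14.4% higher and 13.1% lower of all tested genes, and DESeq2 called 1 lower (Rasgrp2) and limma-voom 0. Braf, the RAF kinase often mutated in human melanoma, was at 116, 114 and 114 CPM with DMSO and 149, 140 and 162 CPM with GSK126. The groups did not overlap, and the log2 fold change was 0.39 with SE 0.06 (edgeR adjusted p = 0.0111). Braf shares 146 bp of exons with Ndufb2, which had a log2 fold change of -0.03 (SE 0.13), so part of its reads is uncertain.

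Of 8 relatives and partners of Eid1, 6 were tested, of which Rb1 rose, 0 fell and 5 did not pass (16.7%, against 11.1% of all tested genes, with a median log2 fold change of 0.13). At an unadjusted edgeR p below 0.05, 2 were higher (Rb1 and Ep300) and 1 was lower (Rbl2), against 14.4% higher and 13.1% lower of all tested genes, and neither DESeq2 nor limma-voom called one lower. Rb1, the retinoblastoma gene, went from 39.0, 41.0 and 40.2 to 46.1, 53.4 and 53.6 CPM (0.35, SE 0.08, adjusted p = 0.0332 by edgeR), without overlap. Rb1 shares 408 bp of exons with Lpar6, which fell (-0.63, SE 0.11, adjusted p = 0.0152 by edgeR), and 488 bp with Rcbtb2 (0.11, SE 0.13), so part of its reads is uncertain. Its call ended without any library other than GSK126 replicate 1 (adjusted p from 0.0682 to 0.109 by edgeR). Ep300, which encodes p300 and was the most abundant of the list, had a log2 fold change of 0.22 (SE 0.09) and did not pass.

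**Figure D5:**
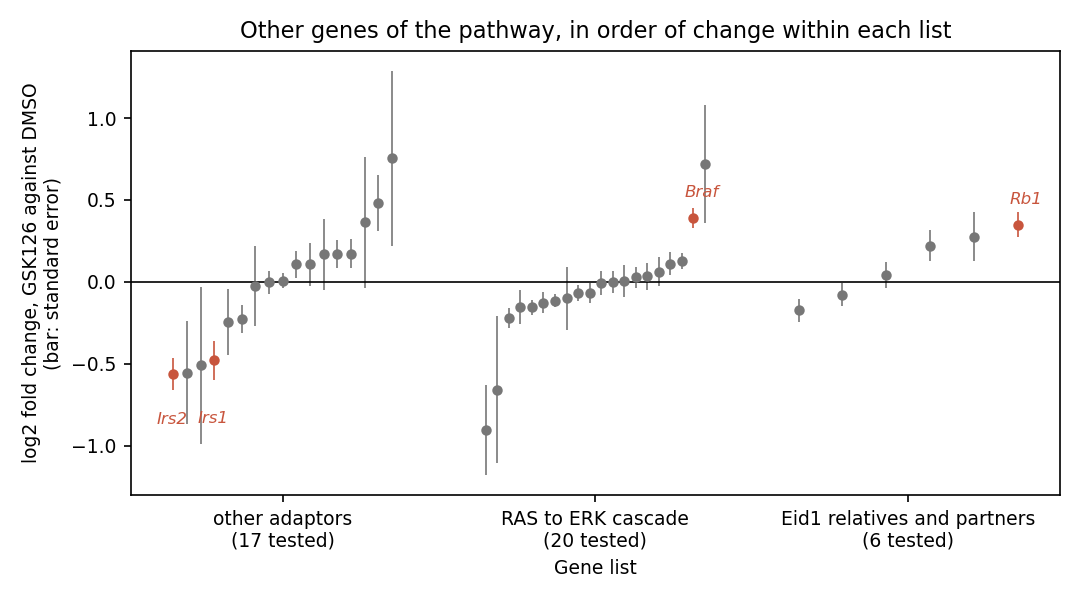
Log2 fold change, GSK126 against DMSO, with its standard error (bars) for the tested genes of the 3 lists, ordered by value within each list, and in red those that passed the edgeR test. The passing genes are Irs1 (-0.48), Irs2 (-0.56), Braf (0.39) and Rb1 (0.35).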

How the data were processed

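Per the submitters' processing notes, base calling used CASAVA 1.8 and alignment used HISAT2 on GRCm38.p4/mm10. The counting tool, its strand setting and its annotation are not stated there or in the labels. Raw counts for each gene and library, and FPKM of the same libraries, are as deposited by the authors. For 96.5% of 13591 tested genes the length behind the deposited FPKM was within 1% of the summed distinct exons of GENCODE M21, so that overlapping exons were counted more than once (18.5% were within 1% of the exon bases counted once).

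Counts were fitted in R 4.3.3 with edgeR 4.0.16 (filterByExpr, TMM, quasi-likelihood F test, group as the only term) and adjusted by Benjamini-Hochberg over 13601 genes, with a threshold of 0.05. The standard error was derived from the F statistic. Alternatives used DESeq2 1.42.0, limma 3.58.1, no filter, a replicate term, single libraries left out, and log2(FPKM + 1) or log2(FPKM + 0.1).

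The members and lists were chosen with earlier results of these data known. The 3 lists covered other adaptors, the RAS to ERK cascade, and relatives and partners of Eid1. From each, called genes and the most abundant one were named, with the 5 genes most like Shc4; some genes of the cascade are not reported here by name. Genes sharing exons with a called gene, those around or ranked beside Shc4 and those given at an unadjusted p were added after values were seen. Fibroblast markers (4) summed to 34.4 to 39.3 CPM over the libraries, with none at 0 and Col1a2 the most abundant (mean 19.5 CPM). Schwann and neuronal markers (4) summed to 28.7 to 45.6 CPM, with Snap25 at 0 and Mbp the most abundant (mean 33.7 CPM).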

Additional observations from a re-analysis of the deposited data

How the results depend on the processing

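Because Shc4 was chosen on these counts, its values here are a description only: its log2 fold change was 2.04 to 2.60 over 14 alternatives, and that of the summed counts of Shc4 and Eid1, which the Shc4 counts carry, was 0.81 to 0.97 over 11. Apart from Grb2, which ran from -0.28 to 0.11 with 1 library left out and turned to 0.11 without GSK126 replicate 3, each of the 9 tested members kept its direction wherever it was tested. For Sos1 (-0.17 to -0.02) and Sos2 (-0.14 to -0.000104) the values came close to no difference, so their sign says little. Shc3 was not tested with a minimum of 1 FPKM. With exon bases counted once, the Shc4 share of the family was 36.6% with GSK126 and 8.66% with DMSO. The genes called numbered 1503, with 899 without a filter, 867 with unfiltered FPKM and 529 to 1243 with 1 library left out, with 815 or fewer when any library but GSK126 replicate 3 was left out. Of the other adaptors, 1 was called without a filter and with each of the 3 FPKM fits, and 0 to 2 with 1 library left out. In the cascade, DESeq2 called 2, and 1 to 2 were called with 1 library left out (2 without GSK126 replicate 3). Of the relatives and partners of Eid1, 0 were called without a filter and with unfiltered FPKM, and 0 to 1 with 1 library left out. In these alternatives the cause was not tested.

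The labels state no pairs, so the replicate number was kept out of the main fit. Same-numbered samples of both groups had correlations of their deviations of 0.07, 0.02 and -0.04 over 10973 genes. The highest correlation was 0.08, for DMSO replicate 3 and GSK126 replicate 2. Deviations cancel within each group by construction, so these correlations cannot decide whether the numbers are pairs. With the replicate number as a block, 408 genes were called, 0 of the other adaptors, 1 of the cascade (Rasgrp2, lower, in place of Braf) and 0 of the relatives of Eid1. Depth limits Shc2 and Shc3 most.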

Other observations

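Crk, an SH2 and SH3 adaptor and the most abundant tested gene of the adaptor list, varied between libraries of both groups. It was at 217, 83.6 and 219 CPM in DMSO replicates 1 to 3 and at 72.2, 207 and 85.8 CPM in GSK126 replicates 1 to 3. High and low libraries were found in each group. Its paralog Crkl, by contrast, had group means of 84.3 ± 1.13 and 84.6 ± 1.13 CPM (SD, n = 3).

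Nras, a RAS gene, was at 116 CPM in DMSO replicate 1 and at 32.1 to 43.2 CPM in the other 5 libraries. These genes were singled out after their values were seen, as were the low Grb2 value of GSK126 replicate 3 and Rasgrp2, an exchange factor gene at 7.35, 4.77 and 8.30 CPM with DMSO and 3.91, 2.52 and 4.46 CPM with GSK126 (log2 fold change -0.91, SE 0.28), which did not pass by edgeR (adjusted p = 0.0800) and was called by DESeq2.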
